A study of Mus musculus with 22 samples.

Results

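Heat shock proteins and the chaperones that work with them were followed through the spinal cords of aging mice and of mice with a model of amyotrophic lateral sclerosis (ALS). The members were taken by gene symbol, not by a threshold on their values: Hspa1a, Hspa1b, Hspa8, Hsp90aa1, Hsph1, Dnajb1, Hspb1, Hspb6, Hspb8 and Cryab, which are 10 of the 21995 genes in the deposited tables. The choice was made with earlier results of these data known, so counts of members called are a description beside the shares over all genes. RNA-seq was done on whole spinal cord of 22 C57BL/6 mice, 1 library per mouse. The aging groups were 8 young wild-type males at 3–4 months and 8 old wild-type males at 18–24 months, all made into libraries by the Roche KAPA HyperPrep protocol. The ALS groups were 3 symptomatic SOD1-G93A mice (genotype G93a in the labels) and 3 wild-type controls of 5–6 months, of both sexes, prepared with the Illumina TruSeq kit. These animals hold a high-copy mutant human SOD1 gene beside their own Sod1, driven by the human promoter and so not limited to one cell type, and the model is one of an overexpressed mutant protein. The cords were extruded into cold buffered saline and the labels name no heat shock treatment. Because kit, age and sex all differ between the aging and the ALS libraries, each old mouse was compared only with young mice, and each SOD1-G93A mouse only with controls.

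Chaperones bind unfolded or partly folded proteins and keep them from sticking together. The HSP70 proteins (Hspa1a, Hspa1b, Hspa8) hold and release clients in cycles driven by ATP, J proteins such as Dnajb1 start the cycle, and Hsph1 (HSP105) exchanges the nucleotide that ends it. Hsp90aa1 (HSP90 alpha) takes over clients late in folding, among them kinases and steroid receptors. The small heat shock proteins (Hspb1, Hspb6, Hspb8, Cryab) use no ATP and hold denatured clients in large assemblies, and Hspb8 also hands clients to autophagy together with Bag3. Many of these genes are induced by heat shock factor 1 (Hsf1), which binds repeats of the unit GAA in alternating orientation, the heat shock element. In the nervous system Hspb1 and Cryab are known from glia, and Hspb1 also from motor and sensory neurons.

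The young libraries held 5078092 to 9358055 counts, the old ones 5664869 to 9145600, the controls 10693060 to 13219797 and the SOD1-G93A libraries 9675610 to 11872431. The mouse Sod1 row, to which reads of the human transgene can map in part, stood at 154 to 165 CPM (counts per 1000000 of the library) in the controls and at 296 to 343 in the SOD1-G93A mice. One old library stood apart. Its counts had the lowest correlation with its own group, 13.2% of them were mitochondrial against 5.24 to 9.18% in the other 7 old libraries, and its microglia marker sum was 508 CPM against 667 to 835. It was kept, and values without it are given where it matters.

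Levels can be set side by side across genes only per length of transcript, as FPKM (fragments scaled to transcript length and library size). In young mice Hspa8, the constitutive HSP70, led with a median of 1452 FPKM (range 1314 to 1605), followed by Hsp90aa1 at 625 (580.4 to 658), Cryab at 306 (261 to 386) and Hsph1 at 123 (105 to 136), and the ranges of these 4 genes did not overlap. The other 6 formed a continuous lower tier in which each gene overlapped its neighbour: Hspb8 with a median of 29.0 FPKM, Hspb1 with 25.5, Dnajb1 with 13.4, Hspb6 with 9.33, Hspa1b with 4.00 and Hspa1a with 3.08. The inducible HSP70 genes were the least abundant members per length. In the SOD1-G93A mice the order was different below Hspa8: Cryab came next at 488 FPKM (379.6 to 522), overlapping Hsp90aa1 at 464 (383 to 487), and Hspb1, at 445 (161 to 605), overlapped both and lay above Hsph1 at 85.1 (72.9 to 86.7).

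Promoter sequences from RefSeq (GRCm38.p6, 250 bases before to 50 after a start site) were at hand for 7 of the 10 members, with 10 promoters in all. They were searched for neighbouring GAA units 2 bases apart, as a head-to-head pair (GAANNTTC), a tail-to-tail pair (TTCNNGAA) or 3 alternating units (GAANNTTCNNGAA or TTCNNGAANNTTC). Each pair reads the same on both strands, the 2 forms of 3 units are reverse complements of each other, and 3 units contain both pairs. Of all 32851 promoters in the table, 15.1% held at least one pair and 0.603% held 3 units, and by gene, with any of its promoters counted, the shares were 17.0% and 0.662%. A pair was found for 6 of the 7 members and 3 units for Hsph1 alone, while neither Dnajb1 promoter held one of these strings. The 3 small heat shock proteins in the table carried the same 8 letters, GAAGTTTC, which were singled out after the promoters had been read and which stand on either strand in 1.21% of promoters. Windows of 30 bases around chosen matches are shown, with the match in capitals, because they show the letters shared by the Hspb genes, those shared by the HSP70 pair and the 3 units of Hsph1.
Hspb1: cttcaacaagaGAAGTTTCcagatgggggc
Hspb6: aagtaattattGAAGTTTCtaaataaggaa
Hspb8: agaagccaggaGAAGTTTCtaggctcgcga
Hsph1: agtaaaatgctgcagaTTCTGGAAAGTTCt
Hspa1a: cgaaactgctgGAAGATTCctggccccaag
Hspa1b: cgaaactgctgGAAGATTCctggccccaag
The Hspb1 window lies at chr5:135887791-135887820, plus strand, with the match 117 bases upstream of the start site. Another head-to-head pair of Hspb1, 97 bases upstream, and a tail-to-tail pair of Hsph1, 33 bases upstream of its first start site, are not marked. The Hspb6 window, in its second promoter only, lies at chr7:30553170-30553199, plus strand, with the match 120 bases upstream. In Hspb8 the match begins at base 3 of the transcript (chr5:116422844-116422873, minus strand), and in Hsph1 at base 37 of the transcript for the first of its 2 start sites (chr5:149636287-149636316, minus strand). Hspa1a (chr17:34972242-34972271, minus strand) and Hspa1b (chr17:34959324-34959353, minus strand) have the same 30 bases, 104 bases upstream of the start site in both, and 296 of their 300 promoter bases are identical. A match is a string of letters and not a site shown to be bound.

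Positions bear on what some rows can hold. Cryab overlaps Hspb2 on the opposite strand, Hspb6 overlaps Proser3, Lin37 and a miRNA gene, Hspa8 holds small nucleolar RNA genes, and Hspa1a overlaps the predicted gene Gm20481, in GENCODE M21 on GRCm38. The strand setting of the counting is not given in the sources used here, so reads from overlapping genes cannot be told apart. The Cryab gene lies at chr9:50751325-50756636, plus strand, Hspb6 at chr7:30552178-30555443, plus strand, Hspb1 at chr5:135887919-135889563, plus strand, Hspb8 at chr5:116408491-116422864, minus strand, Hsph1 at chr5:149614287-149636376, minus strand, Hsp90aa1 at chr12:110690605-110702728, minus strand, Hspa8 at chr9:40800984-40810087, plus strand and Dnajb1 at chr8:83608193-83612653, plus strand.

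With age, 3 of the 4 small heat shock proteins rose, Hspb1 to a median of 52.6 from 23.6 CPM, and among the larger chaperones Hspa1b, Hsph1 and Hsp90aa1 fell. Of the 10 members, 3 were higher in old mice (Hspb1, Hspb6, Hspb8) and 3 lower (Hspa1b, Hsp90aa1, Hsph1) at an adjusted p under 0.05 by edgeR's quasi-likelihood test, while 13.5% of the 13647 genes tested were called higher and 12.9% lower. Past a log2 fold change of 1 as well there were 2 members, Hspb1 upward, where the background is 2.18%, and Hspa1b downward, where it is 0.044%. The split of reads between Hspa1a and Hspa1b is uncertain, however. Fitted as 1 summed gene, the pair was lower but did not pass a log2 fold change of 1 (-0.83, edgeR adjusted p = 0.00123). In that fit 3 of the other members were higher and 2 lower. In 3 members, Hspb6, Hsp90aa1 and Hsph1, the CPM of the groups (from here on counts per 1000000, with libraries scaled by TMM) did not overlap, against 5.33% of genes in either direction. The plot of the members by mouse shows these values.

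**Figure D1:**
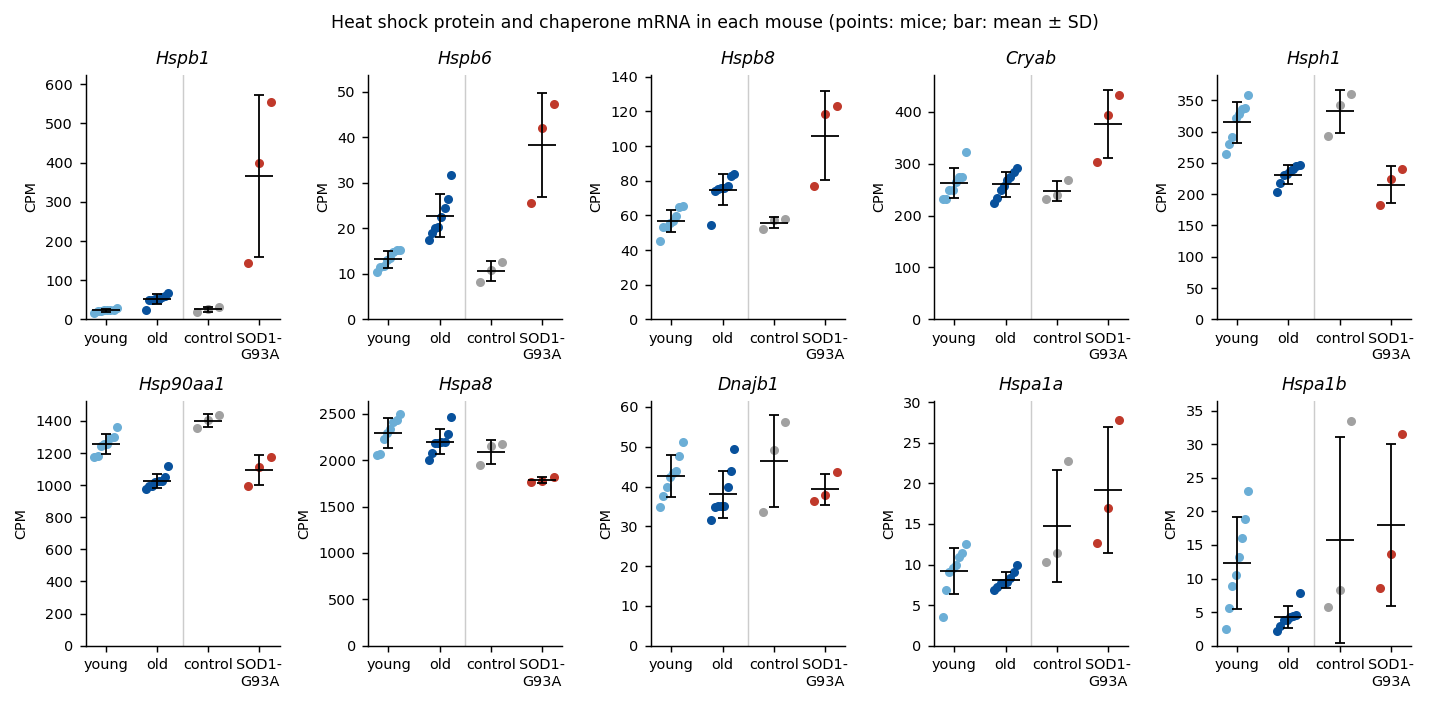
CPM of each of the 10 members in every mouse, on linear axes from 0, with young and old mice left of the grey line and control and SOD1-G93A mice right of it. Points are mice and bars the mean ± SD. The 3 SOD1-G93A mice lie above all 3 controls for Hspb1, Hspb6, Hspb8 and Cryab and below them for Hsph1, Hsp90aa1 and Hspa8, and 1 old mouse lies among the young mice for Hspb1 and Hspb8.

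Hspb1 (HSP27), which guards actin filaments and blocks apoptosis besides holding clients, ranged from 15.2 to 29.0 CPM in the young mice, with a median of 23.6, and from 24.8 to 67.7 in the old mice, with a median of 52.6. In all, 7 of the 8 old mice lay at 49.8 CPM or above and no young mouse passed 29.0, but the old library that stood apart, at 24.8, lay within the young range. The difference was called (log2 fold change 1.16, SE 0.137, edgeR adjusted p = 1.09e-06), and without that library it was 1.26 (SE 0.0903, adjusted p = 1.38e-10). Hspb6 (HSP20), best known as a regulator of smooth and cardiac muscle, ranged from 10.5 to 15.3 CPM in the young mice, with a median of 13.3, and from 17.4 to 31.8 in the old mice, with a median of 21.5. Every old mouse was above every young mouse (log2 fold change 0.77, SE 0.114, adjusted p = 1.96e-05), and the same old library was here the highest of its group, at 31.8. Without it the log2 fold change of Hspb6 was 0.69. Hspb8 (HSP22), the partner of Bag3, ranged from 45.4 to 65.4 CPM in the young mice, with a median of 56.2, and from 54.8 to 83.8 in the old mice, with a median of 75.8. Its groups overlapped through the same single old library, at 54.8 CPM against 74.3 to 83.8 in the other 7 (log2 fold change 0.40, SE 0.0766, adjusted p = 4.08e-04), and without it the log2 fold change was 0.45. Cryab (alpha B-crystallin), abundant in oligodendrocytes and astrocytes, did not share in this: it ranged from 232 to 323 CPM in the young mice, with a median of 257, and from 224 to 292 in the old mice, with a median of 263 (log2 fold change -0.010, SE 0.0645, adjusted p = 0.928). These 2 groups covered nearly the same range.

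Other cell type signals moved between the same groups. Of 8 astrocyte markers 4 rose, led by Gfap (0.69 on the log2 scale), and 1 fell, and their summed level ran from 8022 to 8773 CPM in young mice and from 9054 to 9898 in old mice. Of 8 microglia markers 7 rose, led by C1qa (2.09), with a sum from 329 to 364 CPM in young and from 508 to 835 in old mice. Of 8 oligodendrocyte markers 1 rose and 4 fell, with sums from 24778 to 30958 CPM and from 24628 to 29245, which overlap. No marker of these lists was at 0. Over all genes tested with age, 13.5% were called higher and 12.9% lower. The old library with young-like Hspb1 and Hspb8 also had the lowest astrocyte sum (9054 CPM) and the lowest microglia sum of the old mice, and the highest neuron sum (7479 against 5832 to 6806). It lay outside the other 7 as well in the endothelial (240 against 252 to 290 CPM), meningeal (63.1 against 68.2 to 80.2) and Schwann cell sums (633 against 525 to 599.6). Its oligodendrocyte, motor neuron, mural, skeletal muscle and blood sums lay within their range. In whole cord, more or fewer cells of a type cannot be told apart from more or less of an mRNA per cell, and the part of these shifts in the members' values was not tested.

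Hsph1, the HSP110-type partner of HSP70, ranged from 265 to 358 CPM in the young mice, with a median of 325, and from 203 to 246 in the old mice, with a median of 234. All 8 old mice were below all 8 young mice (log2 fold change -0.44, SE 0.0574, adjusted p = 3.63e-06). Hsp90aa1, the inducible cytosolic HSP90, ranged from 1173 to 1362 CPM in the young mice, with a median of 1258, and from 973 to 1121 in the old mice, with a median of 1021, again without overlap (log2 fold change -0.30, SE 0.0396, adjusted p = 5.56e-06). The decrease was small in fold but larger than the spread, since the SD within groups was 62.3 CPM in young and 45.3 in old mice (n = 8 each). Hspa8, which uncoats clathrin vesicles and serves general folding, ranged from 2062 to 2502 CPM in the young mice, with a median of 2317, and from 2008 to 2467 in the old mice, with a median of 2188 and was not called (log2 fold change -0.060, SE 0.0481, adjusted p = 0.387). Dnajb1 (HSP40), the J protein induced together with HSP70, ranged from 34.8 to 51.2 CPM in the young mice, with a median of 42.9, and from 31.5 to 49.4 in the old mice, with a median of 35.1 and was not called either (log2 fold change -0.15, SE 0.0879, adjusted p = 0.204). In both genes most of the old range lay within that of the young mice. No call on these 4 genes changed when any one library was left out.

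Hspa1a and Hspa1b encode almost the same inducible HSP70 protein from neighbouring genes (chr17:34969190-34972156, minus strand, and chr17:34956436-34959238, minus strand, GRCm38). Reads can be shared out between them by the counting, so the split is uncertain and their sum was also fitted as 1 gene. Taken singly, Hspa1b ranged from 2.48 to 23.0 CPM in the young mice, with a median of 11.9, and from 2.24 to 7.87 in the old mice, with a median of 4.10, and it fell (log2 fold change -1.60, SE 0.316, adjusted p = 5.78e-04). Hspa1a, which ranged from 3.58 to 12.6 CPM in the young mice, with a median of 9.75, and from 6.85 to 9.96 in the old mice, with a median of 7.82, was not called (log2 fold change -0.19, SE 0.168, adjusted p = 0.441). The groups overlapped for both genes, and the widest spread was that of Hspa1b in young mice. On the deposited log2(FPKM + 1) values, where low genes are compressed by the added 1, the log2 change of Hspa1b was -0.97 by limma, with adjusted p = 0.0101.

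The sum of the pair ranged from 11.5 to 33.0 CPM in young mice, with a median of 19.4, and from 10.02 to 15.7 in old mice, with a median of 12.3. Its mean was 21.6 ± 8.09 CPM in young and 12.4 ± 1.80 in old mice (SD, n = 8 each). The SD was thus lower in old mice as well, but the difference in SD was not tested. The level was lower with age, although 2 of the young mice, at 11.5 and 15.1 CPM, lay within the old range. The decrease was called (log2 fold change -0.83, SE 0.177, edgeR adjusted p = 0.00123), and a two-sided exact permutation test of the CPM over 12870 arrangements gave p = 0.00311, where the smallest p it can give is 1.55e-04. The share of the pair assigned to Hspa1b ranged from 21.6 to 78.7% in young mice and from 22.3 to 50% in old mice, with means of 53.9% and 33.7% (exact permutation p = 0.0157). The 2 young mice with the largest sums, at 33.0 and 31.5 CPM, had shares of 69.8% and 60.1%, but the highest share, 78.7%, was that of a young mouse with a sum of 16.8 CPM.

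**Figure D2:**
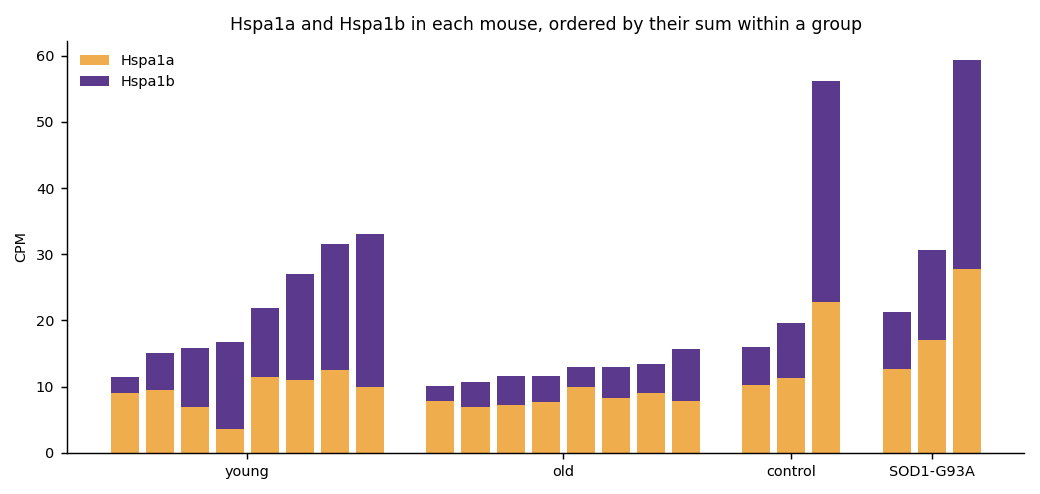
CPM assigned to Hspa1a (lower part of each bar) and Hspa1b (upper part) in every mouse, 1 bar a mouse, ordered by their sum within each of the 4 groups, on a linear axis from 0. The old mice lie between 10.02 and 15.7 CPM, and 1 control and 1 SOD1-G93A mouse stand highest, at 56.2 and 59.3 CPM.

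In the symptomatic SOD1-G93A cord all 4 small heat shock protein members rose, Hspb1 most, while Hsph1 and Hsp90aa1 fell. By edgeR 4 members were higher (Hspb1, Hspb6, Hspb8, Cryab), where 18.4% of the 14386 genes tested were higher, and 2 were lower (Hsph1, Hsp90aa1), where 15.5% were lower. Past a log2 fold change of 1 there were 2 higher members, Hspb1 and Hspb6, against a background of 8.5% higher and 1.2% lower. In 7 members the groups did not overlap, but with 3 mice a group this was so for 50.4% of all genes. Values of single mice are given in the order of falling Hspb1 within each group, so that the same mouse keeps its place.

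Hspb1 stood at 555, 398 and 144 CPM in the SOD1-G93A mice and 32.0, 26.1 and 18.6 in the controls. The mouse lowest in Hspb1 among the SOD1-G93A mice was still above every control by several-fold, and the SOD1-G93A mice differed among themselves far more than the controls did. The difference was 3.84 on the log2 scale (SE 0.455, edgeR adjusted p = 6.42e-04), a fitted 14.3-fold increase. Hspb6 stood at 42.0, 47.4 and 25.6 CPM in the SOD1-G93A mice and 10.8, 12.6 and 8.25 in the controls (log2 fold change 1.86, SE 0.240, adjusted p = 9.61e-04). Hspb8 stood at 123, 119 and 76.7 CPM in the SOD1-G93A mice and 57.3, 57.7 and 52.0 in the controls (log2 fold change 0.93, SE 0.165, adjusted p = 0.00418). For both genes the third SOD1-G93A mouse was again the lowest of the 3. Cryab stood at 432, 394 and 303 CPM in the SOD1-G93A mice and 268, 241 and 232 in the controls (log2 fold change 0.61, SE 0.135, adjusted p = 0.0100), and it was the only one of the 4 that changed in the ALS comparison and was not called with age. Leaving out the control lowest in Cryab brought its adjusted p to 0.0518, over the threshold of 0.05, with a log2 fold change of 0.56. Without the SOD1-G93A mouse lowest in Hspb1, the log2 fold change of Hspb1 was 4.22, and without the mouse highest in it 3.41.

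The SOD1-G93A mice kept the order of Hspb1 in the astrocyte and microglia sums and the reverse order in the neuron sum. They also kept it in the sums of immediate early genes (401, 368 and 272 CPM), meningeal markers (129, 86.2 and 68.4) and the inducible HSP70 pair. The oligodendrocyte, motor neuron, endothelial, mural, Schwann cell, skeletal muscle, blood, and temperature and clock sums kept neither order. The controls kept neither order in the astrocyte, microglia and neuron sums. Their oligodendrocyte sums did keep the order of Hspb1, at 31187, 30354 and 27243 CPM, and 3 mice match an order easily. The summed level of the 8 astrocyte markers, of which 5 rose, was 19850.2, 17568 and 13108 CPM in the SOD1-G93A mice and 7639.6, 8132 and 7482 in the controls, and that of the 8 microglia markers, of which 6 rose, was 2188, 1755 and 1235 and 334, 405 and 362. The 8 neuron markers, of which 7 fell, summed to 3168, 3655 and 5249.9 CPM in the SOD1-G93A mice and 7643, 7479 and 7795 in the controls. The mouse with the least Hspb1, Hspb6, Hspb8 and Cryab thus also had the smallest astrocyte and microglia sums and the largest neuron sum of its group. Of 8 motor neuron markers 6 fell, and their sum was 156, 141 and 143 CPM against 322, 287 and 293. No astrocyte, microglia, neuron or motor neuron marker was at 0 in either group, and the part of these shifts in the members' values was not tested. Over all genes tested in the ALS comparison, 18.4% were called higher and 15.5% lower.

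Hsph1 stood at 239.8, 183 and 223 CPM in the SOD1-G93A mice and 360.1, 293 and 343 in the controls (log2 fold change -0.63, SE 0.125, adjusted p = 0.00679). Hsp90aa1 stood at 1112, 995 and 1178 CPM in the SOD1-G93A mice and 1439, 1358 and 1409 in the controls (log2 fold change -0.36, SE 0.0984, adjusted p = 0.0228). Both were below all controls in all 3 SOD1-G93A mice, but the call on Hsp90aa1 was lost when any one of the 3 controls was left out (adjusted p = 0.0676, 0.0883 and 0.0905 by edgeR), or the SOD1-G93A mouse lowest in it (0.107). Hspa8 stood at 1822, 1773 and 1763 CPM in the SOD1-G93A mice and 2179.5, 1943 and 2157 in the controls. It lay below the controls in all 3 mice and missed the threshold (log2 fold change -0.23, SE 0.0942, adjusted p = 0.0913), while DESeq2 gave an adjusted p of 0.0242, one edgeR fit of all 22 libraries 0.0116, and edgeR without the SOD1-G93A mouse lowest in Hspb1 0.0408. Dnajb1 stood at 43.7, 37.8 and 36.4 CPM in the SOD1-G93A mice and 56.2, 33.7 and 49.2 in the controls (log2 fold change -0.24, SE 0.174, adjusted p = 0.317), with overlap. Without the control lowest in Dnajb1 the adjusted p was 0.0468, at a log2 fold change of -0.43.

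The inducible HSP70 pair did not separate SOD1-G93A mice from controls. Its sum was 59.3, 30.7 and 21.4 CPM in the SOD1-G93A mice and 56.2, 15.9 and 19.6 in the controls, so in each genotype 1 mouse stood above the other 2. The log2 fold change was 0.28 (SE 0.490, edgeR adjusted p = 0.697), and the exact permutation test gave p = 0.5, where 3 mice against 3 cannot give less than 0.1. Without the high control the log2 fold change of the sum was 1.06 (adjusted p = 0.0950) and without the high SOD1-G93A mouse it was -0.24 (adjusted p = 0.752), so its direction rested on single mice. Hspa1a stood at 27.8, 17.0 and 12.7 CPM in the SOD1-G93A mice and 22.7, 10.2 and 11.4 in the controls (log2 fold change 0.37, SE 0.350, adjusted p = 0.444). Hspa1b stood at 31.5, 13.7 and 8.66 CPM in the SOD1-G93A mice and 33.4, 5.69 and 8.25 in the controls (log2 fold change 0.18, SE 0.645, adjusted p = 0.855). The share of the pair assigned to Hspa1b was 46.1 ± 6.42% in SOD1-G93A mice and 45.8 ± 12.3% in controls (SD, n = 3 each).

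**Figure D3:**
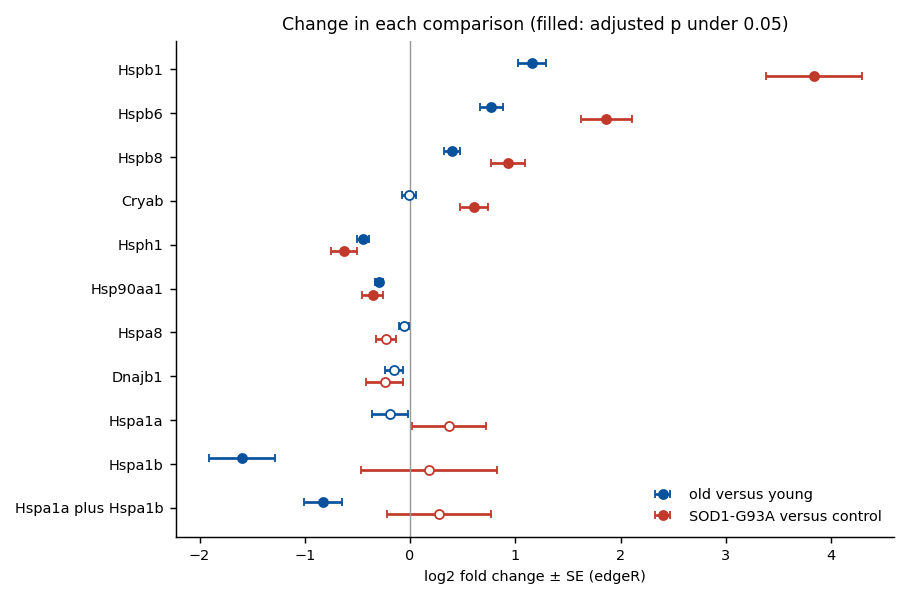
Log2 fold change ± SE from edgeR for each member and for the summed Hspa1a and Hspa1b pair, old against young and SOD1-G93A against control. Filled points passed an adjusted p of 0.05 and open points did not. The changes run from -1.60 for Hspa1b with age to 3.84 for Hspb1 in SOD1-G93A mice.

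Whether the members changed by different amounts in the 2 experiments was tested as the SOD1-G93A minus control difference less the old minus young difference, in one edgeR fit of all 22 libraries. Kit and experiment coincide with the 2 comparisons and cannot be told apart from them. Of the 10 members 4 differed, where 25.8% of 14502 genes did, and all 4 were small heat shock proteins with the larger value in ALS. The difference was 2.65 (SE 0.381, adjusted p = 2.69e-05) for Hspb1, 1.06 (SE 0.246, adjusted p = 0.00226) for Hspb6, 0.59 (SE 0.140, adjusted p = 0.00272) for Cryab and 0.50 (SE 0.168, adjusted p = 0.0283) for Hspb8. That of Hspb8 was not called when any of 4 single libraries was left out, with adjusted p from 0.0522 to 0.131. These were 1 young mouse, the control lowest in Cryab and the 2 SOD1-G93A mice highest in Hspb8. For Hsph1 the difference was -0.21 (SE 0.125, adjusted p = 0.230), for Hsp90aa1 -0.087 (SE 0.0841, adjusted p = 0.488) and for Hspa8 -0.20 (SE 0.0951, adjusted p = 0.133). The inducible pair gave 1.07 (SE 0.451, adjusted p = 0.0821) and Hspa1b on its own 1.75 (SE 0.680, adjusted p = 0.0600). Hspa1b passed the threshold in 5 of the 22 fits with 1 library left out (2 young mice, 1 old, 1 control and 1 SOD1-G93A mouse), with adjusted p from 0.00272 to 0.0490 and the largest value, 2.93 (adjusted p = 0.00272), in the fit without the control highest in the pair, and in that fit Hspa1a passed too (adjusted p = 0.0450).

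The rest of the chaperone system was described from lists of families, without a test of the lists. Of the 8 small heat shock protein genes 4 passed the count filter in the aging libraries, all of them members, and 3 of these rose. Among 15 HSP70 and HSP110 genes 7 fell and the other 8 did not pass, and the median log2 fold change of the family was -0.20, against -0.0027 over all genes tested. The lowest adjusted p belonged to Hspa4l (-0.42 on the log2 scale, adjusted p = 1.81e-06 by edgeR), an HSP110-type protein like Hsph1, followed by Hsph1 and Hspa4 (-0.25). The others that fell were Hspa1b, the atypical Hspa12a (-0.20) and a pair from the endoplasmic reticulum, Hspa5 (BiP, -0.41) and Hyou1 (-0.25). All 4 HSP90 genes were called: Hsp90aa1, the endoplasmic reticulum protein Hsp90b1 (-0.38) and the constitutive Hsp90ab1 (-0.16) fell, and the mitochondrial Trap1 (0.12) rose. Of 21 J proteins 3 fell, Dnaja1 (-0.22), Dnajc6 (-0.17), the auxilin of clathrin uncoating, and Dnajc3 (-0.15). Among 9 chaperonin genes tested the mitochondrial Hspd1 (-0.14) fell and Cct2 (0.10) rose. Of 20 co-chaperones 4 fell, led by Chordc1 (-0.41), Ahsa2 (-0.36) and the HSP70 to HSP90 adaptor Stip1 (-0.25), and 2 rose, Fkbp5 (0.22) and Sgta (0.13). Hspa12a, Hspa5 and Hyou1 are named as the rest of the called HSP70 and HSP110 genes, and Fkbp5 and Sgta as the co-chaperones that rose. These choices were made after their values were seen, and the remaining co-chaperone that fell is not named.

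In SOD1-G93A mice 5 of the 8 small heat shock protein genes passed the count filter, and the 4 members among them all rose. The fifth was Hspb7, a muscle-enriched family member close to the limit of detection, at 0.906 to 1.44 CPM against 0 to 0.380 in the controls. No fold is given because no control held more than 4 of its counts. It passed the filter only through the SOD1-G93A libraries, so its call (edgeR adjusted p = 0.0133) does not add to those of the 4 members. The genes that did not pass were Hspb2, Hspb3 and Cryaa, and with age also Hspb7. Among the 15 HSP70 and HSP110 genes 3 fell, Hspa12a (-0.83 on the log2 scale), Hspa4l (-0.82) and Hsph1, and Hspa2 (0.68) was the one that rose, named after its value was seen. Hsp90aa1 was the one HSP90 gene of 4 to be called. Of 21 J proteins 4 fell, among them Dnajc6 (-0.80), Dnajc5 (-0.48), the cysteine string protein of synaptic vesicles, and Dnaja4 (-0.42). Of 20 co-chaperones 4 fell, led by Stip1 (-0.59), the HSP90 activator Ahsa1 (-0.44) and Fkbp4 (-0.40), and of 9 chaperonin genes Cct8 (-0.30) fell. Leaving aside the 10 members, these 6 family lists held 63 genes tested with age, of which 4 rose and 15 fell. In SOD1-G93A mice 64 were tested, of which 2 rose, Hspa2 and Hspb7, and 11 fell. Of all genes tested, 13.5% and 12.9% were called higher and lower with age, and 18.4% and 15.5% in SOD1-G93A mice.

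**Figure D4:**
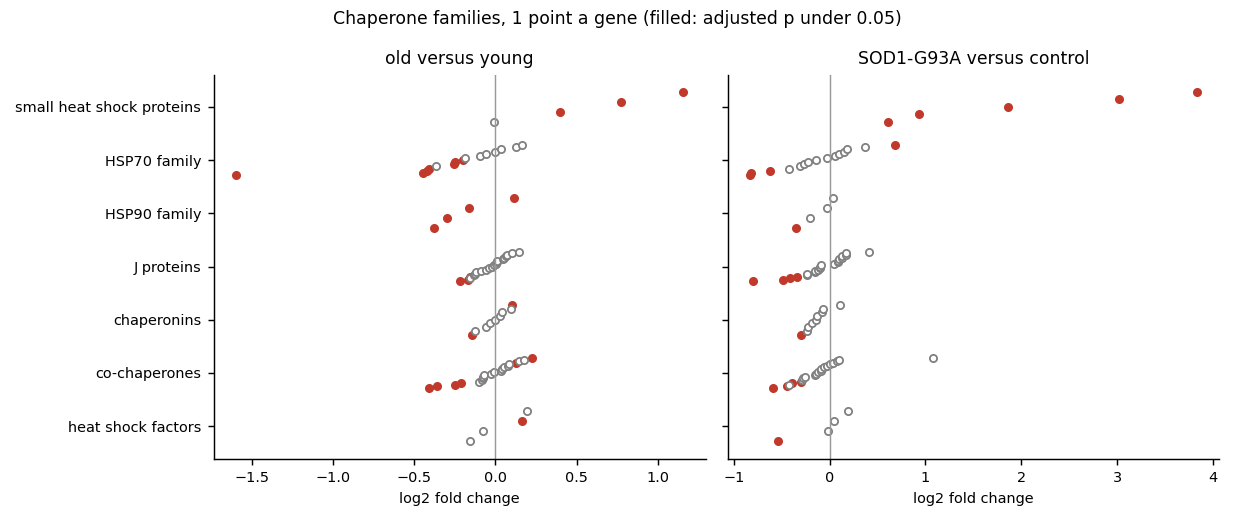
Log2 fold change of every tested gene of 7 chaperone lists, 1 point a gene, old against young on the left and SOD1-G93A against control on the right, with separate horizontal scales. Filled points passed an adjusted p of 0.05. The called small heat shock proteins all lie right of 0 in both panels, 3 with age and 5 in SOD1-G93A mice, and most called genes of the other families lie left of it. Of the 5, Hspb7 passed the count filter only through the SOD1-G93A libraries.

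Of 4 genes of the heat shock factor system, Hsbp1 rose with age and Hsf4 fell in SOD1-G93A mice. On the log2 scale Hsf1, the main stress-activated factor, differed by -0.16 with age (adjusted p = 0.139) and -0.015 in SOD1-G93A mice (adjusted p = 0.924) by edgeR, and neither was called. Hsf2 differed by -0.079 with age (adjusted p = 0.423) and 0.047 in SOD1-G93A mice (adjusted p = 0.811). Hsf4, known from the lens, differed by 0.19 with age (adjusted p = 0.0694) and -0.54 in SOD1-G93A mice (adjusted p = 0.0110). Hsbp1, which binds heat shock factor trimers and dampens them, differed by 0.17 with age (adjusted p = 0.0233) and 0.20 in SOD1-G93A mice (adjusted p = 0.107). Of 16 genes known to be induced by Hsf1 and not among the members, 1 rose and 6 fell with age, and 2 rose and 5 fell in SOD1-G93A mice. Those with the lowest adjusted p with age were Hspa4l, Chordc1 and Dnaja1, all lower. In SOD1-G93A mice Stip1 and Ahsa1 were lower while Serpinh1 (0.97), the collagen chaperone, and Ier5 (1.02), an immediate early gene, were higher, and Ier5 (0.41) was also the one that rose with age. Of these 16 genes 11 also stand in the family lists. The shares over all genes tested were 13.5% higher and 12.9% lower with age, and 18.4% and 15.5% in SOD1-G93A mice.

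Hspb8 works in autophagy with a small set of partners, and of 5 such genes 2 rose with age and 1 in SOD1-G93A mice. Bag3, the co-chaperone that binds Hspb8, differed by 0.15 with age (adjusted p = 0.144) and 0.0060 in SOD1-G93A mice (adjusted p = 0.984) and was not called in either. The autophagy receptor Sqstm1 (p62) rose with age (0.22, edgeR adjusted p = 5.61e-04) and stood at 0.18 in SOD1-G93A mice (adjusted p = 0.173). Synpo2, which links Bag3 to autophagosome membranes, rose in both, by 0.29 (adjusted p = 0.0231) and 0.89 (adjusted p = 0.0268). Stub1 and Bag1 made up the rest of the list and were not called. With the heat shock factor, Hsf1-inducible and autophagy lists added to the 6 families, and the members left aside, 23 of 74 genes were called with age, 8 higher and 15 lower. In SOD1-G93A mice 17 of 75 were called, 5 higher (Hspb7 among them) and 12 lower. Of all genes tested, 13.5% were called higher and 12.9% lower with age, and 18.4% and 15.5% in SOD1-G93A mice. The ALS count over these 9 lists depended on single mice: it was 8 without the SOD1-G93A mouse lowest in Hsp90aa1, 30 without the one lowest in Hspb1, and 33 in one fit of all 22 libraries.

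How the members vary from mouse to mouse within a group was asked for the 8 young and the 8 old mice, with log2 CPM of the summed pair set against each of the other 8 members. Among 16 relations, 2 passed an adjusted p of 0.05 for Pearson's r, both in young mice. The young mice with more of the pair also had more Hspa8 (r = 0.912, exact permutation p = 0.00166, adjusted p = 0.0133, Spearman's rho = 0.881, exact permutation p = 0.00724) and more Hspb1 (r = 0.823, exact permutation p = 6.20e-04, adjusted p = 0.00992, rho = 0.905, exact permutation p = 0.00456). For both genes the adjusted p of rho was 0.0571, just over the threshold. Without the 2 young mice farthest from the median of the pair, r was 0.891 for Hspa8 and 0.879 for Hspb1 (n = 6). Cryab came next in young mice (r = 0.797, exact permutation p = 0.0142, adjusted p = 0.0755, rho = 0.714, exact permutation p = 0.0576). In the old mice, where the pair spanned a narrow range, r was 0.365 for Hspa8 (exact permutation p = 0.373, rho = 0.619, exact permutation p = 0.115) and 0.678 without the 2 mice farthest from the median of the pair. For Hspb1 in old mice r was -0.518 (exact permutation p = 0.201) and rho -0.857 (exact permutation p = 0.0107, adjusted p = 0.0571), and r was -0.674 without the 2 farthest mice. Neither gene passed after adjustment in old mice. The difference between the young and the old relations was not tested. The labels give no batch for these mice, and the 3 mice a group of the ALS experiment are too few for such a relation.

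**Figure D5:**
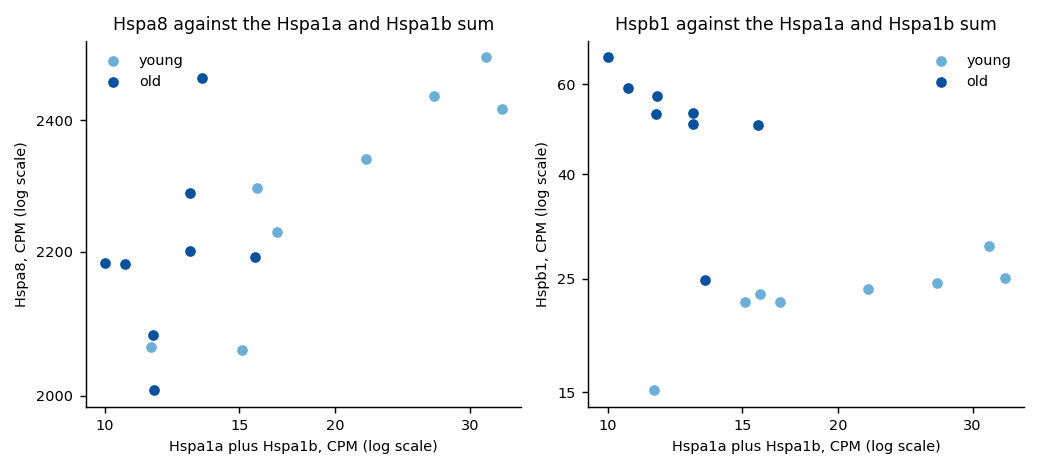
CPM of Hspa8 (left) and Hspb1 (right) against the sum of Hspa1a and Hspa1b in the 16 mice of the aging experiment, on log axes, 1 point a mouse. Young mice rise from lower left to upper right in both panels (r = 0.912 and 0.823 on log2 CPM), and 1 old mouse lies near the young mice for Hspb1.

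Over all 16 aging libraries, with log2 CPM centred within each group, the 5 genes of 13645 that followed the pair most closely were Pdia4 (r = 0.875), Pdia3 (0.822), Manf (0.806), Hsp90b1 (0.775) and Trappc8 (0.774). Pdia4 and Pdia3 are protein disulfide isomerases, Manf is a secreted factor of the endoplasmic reticulum, Hsp90b1 is the HSP90 of that compartment and Trappc8 belongs to a vesicle tethering complex. These are descriptions picked as the highest of many, and the points share libraries and depth. The likeness came mostly from young mice, with r = 0.963 for Pdia4 in young and 0.170 in old mice, while Pdia3 gave 0.915 and 0.808. Of the members Hspa8 ranked highest, at place 16, Cryab followed at place 72 and Hspb8 was lowest at place 8516.

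Genes that follow body temperature, the daily clock, glucocorticoids and cell activity were counted beside the members. Over all genes tested, 13.5% were called higher and 12.9% lower with age, and 18.4% and 15.5% in SOD1-G93A mice. Of 8 genes of temperature and clock, 3 rose with age, Rbm3 (0.66, edgeR adjusted p = 2.19e-05), Cirbp (0.50, adjusted p = 4.40e-05) and Dbp (0.49, adjusted p = 0.0332), and the summed list ran from 323 to 408 CPM in young and from 362 to 529 in old mice. Rbm3 and Cirbp, which are induced by mild cold, did not overlap between young and old mice, as was so for 5.33% of all genes tested. In SOD1-G93A mice 2 of the 8 rose, Rbm3 (0.67, adjusted p = 0.0147) and Per1 (0.61, adjusted p = 0.0189). Of 6 glucocorticoid-responsive genes Fkbp5 rose and Tsc22d3 (-0.24) fell with age, and Per1 and Pdk4 (1.25) rose in SOD1-G93A mice. Of 13 immediate early genes 12 were tested with age, where 5 rose, led by Atf3 (2.31, adjusted p = 4.74e-09), Fos (0.56) and Junb (0.61), and Arc fell. In SOD1-G93A mice 6 of 13 rose, among them Atf3 (5.41), and Arc (-0.99) fell. The part of these shifts in the members' values was not tested.

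Markers of the other cell types that a dissected cord could hold gave the following counts. They stand beside shares over all genes of 13.5% higher and 12.9% lower with age, and 18.4% and 15.5% in SOD1-G93A mice. With age, of 7 endothelial markers 3 fell (Tek, Flt1 and Kdr), of 7 mural and smooth muscle markers tested Tagln (1.14) rose and Myh11 (-0.61) fell, and of 3 Schwann cell markers tested Pmp22 rose and Mal fell. Hspb6 is abundant in smooth muscle, whose summed markers ran from 214 to 236 CPM in young and from 191 to 252 in old mice, which overlap. In SOD1-G93A mice 4 mural markers rose and 1 fell, led by Tagln (2.20), with sums of 183 to 229.8 CPM in controls and from 185 to 209.6 in SOD1-G93A mice, 1 of 7 endothelial markers fell (Kdr), 2 of 5 Schwann cell markers tested rose (Egr2 and Pmp22), 1 of 7 meningeal markers rose (Col1a1) and 1 of 8 oligodendrocyte markers rose (Cldn11). With age 3 of 8 neuron markers were called, Tubb3 upward and Nefl and Slc17a6 downward, and 1 of 8 motor neuron markers fell (Chodl). For the 6 meningeal markers tested with age edgeR called 0, with 1 at an unadjusted p under 0.05, and for the 5 blood markers it called 0 in both comparisons, with 1 and 0 at an unadjusted p under 0.05. Skeletal muscle genes were near the limit of detection: with age 7 of 7 did not pass the count filter, and their sums stayed at or under 5.52 CPM.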

How the data were processed

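Whole spinal cord RNA of 22 mice was sequenced, 1 library per mouse. The authors aligned reads with STAR to mm10 and summarised them with RSEM on Ensembl 88, and the submitters' processing notes name SAMtools 1.3. The strand setting is not given in the sources used here. The deposited expected counts were whole numbers for 21995 genes, with 5078092 to 13219797 counts per library. The authors also deposited log2(FPKM + 1) values, which were used for levels per length and for one alternative. Intervals were not computed from counts, since replicate spread set the error.

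All columns matched a group in the labels. No 2 libraries of a group agreed within sampling noise (lowest chi-square per degree of freedom 2.573). Symbols were found for 21842 genes in a table of Ensembl IDs, and gene positions were read from GENCODE M21 (GRCm38). Old mice were compared with young mice and SOD1-G93A mice with controls, each in its own fit, using edgeR 4.0.16 in R 4.3.3: genes were kept by filterByExpr (at least 10 counts, total of at least 15) and scaled by TMM, and p-values of the quasi-likelihood test were adjusted by Benjamini and Hochberg's method across every tested gene, with the threshold at 0.05. SE is a standard error derived from the same fit, as the size of the log2 fold change over the square root of the test's F statistic. CPM (counts per 1000000) use TMM-scaled library sizes. Single values, such as the summed pair, were also compared by two-sided exact permutation over mice. P-values of group differences set the difference against the spread between these mice. In edgeR the estimate of that spread is partly pooled over genes. The difference between the comparisons was fitted on all 22 libraries. In a simulation of each comparison with 200 changed genes, the fit recovered 100% of them. The false share among the calls was 4.762% at 13691 genes (aging) and 4.306% at 14389 genes (ALS). The changed genes were well counted and all had the same fold change, larger than that of most members. Every gene was given the same spread between mice. The simulation therefore does not show how often smaller changes, low counts or widely spread genes would be called.

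The members and the gene lists were chosen with earlier results of these data known. All 10 members and the summed pair are named. From each chaperone list the genes past adjusted p 0.05 and a log2 fold change of 1 are named, or otherwise up to 3 with the smallest adjusted p, and from the heat shock factor list every gene. From cell type, temperature and clock, glucocorticoid and immediate early lists up to 3 are named, and the 5 genes most like the pair. Alternatives were DESeq2 1.42.0, RLE scaling, no filter, a minimum of 10 counts in every library, one fit of all libraries, limma 3.58.1 on the log2 values, and leaving out each library. Sex was not a term, because the labels do not give it per library of the ALS experiment.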

Additional observations from a re-analysis of the deposited data

Results flagged for a closer look

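In 24 sets of 8 mice (the 10 members, the summed Hspa1a and Hspa1b pair and the share of Hspa1b, in young and in old mice), 5 had a mouse farther from the others than Dixon's 95% critical value allows, where chance gives about 1 in 20. The lowest old mouse in Hspb1, at 24.8 CPM (next 49.8), was also the lowest in Hspb8, at 54.8 CPM (next 74.3), and it is the old library that stood apart, with 13.2% mitochondrial counts. The highest old mouse in Hspa1b had 7.87 CPM (next 4.58). Among young mice the lowest in Hspb1 had 15.2 CPM (next 22.5), and the highest in Cryab had 323 CPM (next 275).

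The change in SOD1-G93A mice against controls exceeded that of old against young mice for 4 members by edgeR's test of the difference, by 2.65 on the log2 scale for Hspb1 (adjusted p = 2.69e-05), 1.06 for Hspb6 (adjusted p = 0.00226), 0.59 for Cryab (adjusted p = 0.00272) and 0.50 for Hspb8 (adjusted p = 0.0283). That of Hspb8 was not called when any of 4 single libraries was left out, with adjusted p from 0.0522 to 0.131. The kit and the experiment cannot be told apart from the comparison.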

How the results depend on the processing

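Over the other tools, scalings, filters and fits, 134 of 136 values of single members within the 2 comparisons kept their side of the threshold, and with 1 library left out 213 of 220 did. The exceptions were all in SOD1-G93A mice (Hspa8, Hsp90aa1, Cryab and Dnajb1) and are given with those genes, as are the calls on Hspb8, Hspa1b and Hspa1a in the difference between the comparisons that changed with 1 library left out. No called value changed sign, while some values that were not called did with 1 library left out, such as Cryab with age (-0.037 to 0.033 on the log2 scale) and Hspa1b in SOD1-G93A mice (-0.51 to 1.36). The count of called genes other than the members over the 9 chaperone, heat shock factor, Hsf1-inducible and autophagy lists, 23 with age, was 14 by limma on the log2(FPKM + 1) values. In SOD1-G93A mice it was 17, against 33 in one fit of all 22 libraries and 8 to 30 when 1 mouse was left out. With 3 mice a group, leaving 1 out leaves 2 in its group. No paired analysis was possible because the columns carry no replicate numbers. Depth limits the low members, such as the summed pair at 10.02 CPM in an old mouse, and Hspb2, Hspb3, Hspb7 and Cryaa did not pass the count filter in the aging libraries.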
